A study of Mus musculus with 5 samples.

Results

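The regions described here are stretches of open chromatin in gene deserts of the mouse limb bud, over 100 kb from either end of any protein-coding gene. Overlapping peaks (1 bp or more) of all 5 libraries on chromosomes 1 to 19 were joined into regions. A region was taken where both control libraries held a peak and its strongest summit passed the distance limit (mm10 coordinates, RefSeq genes). This gave 6176 desert regions among 44386 regions shared by both controls and 85522 merged regions in all. Of the 6176, 3923 lay outside protein-coding genes and 2253 lay deep inside a long one.

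Open chromatin was mapped with ATAC-seq, a method that cuts and tags open DNA with a transposase, in the anterior forelimb buds of single mouse embryos at E11.5 (40 to 48 somites). The controls (n = 2) had the genotype Prx+/+;Smarcc1c/c, homozygous for a conditional Smarcc1 allele and without Cre. The mutants (n = 3) were PrxCre/+;Smarcc1c/c, with the same allele and Prx-Cre, which is known for its activity in limb mesenchyme. The product of Smarcc1 is BAF155, part of the core of the BAF (SWI/SNF) remodelling complexes.

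As background, gene deserts are long intervals with few or no protein-coding genes, and those beside developmental genes often hold enhancers that act over large distances. In the limb, long-range enhancers of this kind are known for Hoxd genes, Sox9 and other regulators of patterning and cartilage. BAF complexes use ATP to move nucleosomes and are known to keep many enhancers accessible.

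Each library came as a list of called peaks, so the measurement was whether a region held a peak. Control 1 had 68009 peaks and control 2 had 59252, while mutants 1, 2 and 3 had 35988, 42185 and 26581. The read depth is unknown. A background level, not measured but inferred from the spacing of the fold values in each list, was 4.77 (control 1) and 6.42 (control 2). In mutants 1 to 3 it was 5.48, 5.09 and 4.94, and it rests on an assumed form of the fold. The weakest peak of a list had a deposited fold of 2.29 to 2.52. A region without a peak may therefore still be open below that fold. Limb mesenchyme genes (Prrx1, Tbx5, Msx1 and others) had a peak at a gene end for 9 of 9 markers in both controls and in mutant 1, for 8 in mutant 2 and for 6 in mutant 3. Muscle precursor markers had one for 6 and 5 of 6 in the controls and for 2, 5 and 0 in the mutants, and endothelial markers for 5 and 3 of 7 against 2, 3 and 3. Neural crest and glial markers had one for 3 and 2 of 4 in the controls and for 2, 4 and 2 in the mutants. Blood markers had one for 1 of 4 in every library. In a bulk sample, fewer cells of a type and fewer open copies per cell cannot be told apart, and the part of these markers in the results below was not tested.

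A small set of desert regions lay on a transcript start, and their sequences are printed here. They do not stand for desert regions in general. Of the 6176 regions, 220 overlapped a promoter window of the RefSeq table (250 bases before to 50 after a listed start, GRCm38.p6, the coordinates of mm10), for 146 long non-coding RNA genes and 69 protein-coding genes with an internal start. The strongest of them with a peak in every library are printed first, 5′ to 3′ on the strand of the gene, with each CG dinucleotide in capitals, since the median number of these was higher at starts that kept their peak in all mutants. They are the starts of Gm26901 (chromosome 1, 7398047 to 7398346, minus strand), Gm47708 (chromosome 10, 95730076 to 95730375, plus strand), an internal start of Nrxn3 (chromosome 12, 89812233 to 89812532, plus strand) and Dnm3os (chromosome 1, 162217373 to 162217672, plus strand). Nrxn3 encodes a neurexin, a synaptic adhesion protein, and Dnm3os is a non-coding transcript inside Dnm3 that is known to be needed for normal skeletal growth in mice.
Gm26901: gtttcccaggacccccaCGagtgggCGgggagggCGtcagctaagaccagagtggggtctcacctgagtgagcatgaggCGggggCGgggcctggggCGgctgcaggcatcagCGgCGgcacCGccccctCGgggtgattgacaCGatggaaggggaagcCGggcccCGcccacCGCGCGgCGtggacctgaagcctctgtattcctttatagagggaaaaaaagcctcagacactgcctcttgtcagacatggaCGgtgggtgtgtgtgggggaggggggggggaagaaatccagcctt
Gm47708: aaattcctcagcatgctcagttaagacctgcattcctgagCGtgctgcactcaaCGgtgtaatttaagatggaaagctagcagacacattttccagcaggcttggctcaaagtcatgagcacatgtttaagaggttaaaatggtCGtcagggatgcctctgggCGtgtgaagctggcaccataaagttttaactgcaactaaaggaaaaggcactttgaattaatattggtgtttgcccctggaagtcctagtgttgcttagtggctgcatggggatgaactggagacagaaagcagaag
Nrxn3: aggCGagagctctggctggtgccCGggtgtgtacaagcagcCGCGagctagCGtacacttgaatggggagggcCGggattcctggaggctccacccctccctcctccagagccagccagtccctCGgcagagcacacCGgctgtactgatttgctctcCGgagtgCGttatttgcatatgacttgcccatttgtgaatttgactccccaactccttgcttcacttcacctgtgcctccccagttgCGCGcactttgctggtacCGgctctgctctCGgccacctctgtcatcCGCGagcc
Dnm3os: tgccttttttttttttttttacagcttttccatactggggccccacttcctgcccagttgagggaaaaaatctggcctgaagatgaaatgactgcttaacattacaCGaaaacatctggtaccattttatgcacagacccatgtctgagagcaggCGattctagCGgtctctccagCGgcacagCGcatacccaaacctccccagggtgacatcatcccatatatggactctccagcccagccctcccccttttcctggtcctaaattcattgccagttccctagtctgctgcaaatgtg
The strongest starts with a peak in both controls and in no mutant were those of the long non-coding RNA genes Gm32237 (chromosome 3, 56698172 to 56698471, plus strand, between Nbea and Tm4sf1), Gm3728 (chromosome 19, 20010095 to 20010394, minus strand, between Rorb and Anxa1), Gm35251 (chromosome 5, 85705894 to 85706193, plus strand, between Gm42163 and Cenpc1) and E130101E03Rik (chromosome 9, 24973958 to 24974257, plus strand, between Tbx20 and Herpud2).
Gm32237: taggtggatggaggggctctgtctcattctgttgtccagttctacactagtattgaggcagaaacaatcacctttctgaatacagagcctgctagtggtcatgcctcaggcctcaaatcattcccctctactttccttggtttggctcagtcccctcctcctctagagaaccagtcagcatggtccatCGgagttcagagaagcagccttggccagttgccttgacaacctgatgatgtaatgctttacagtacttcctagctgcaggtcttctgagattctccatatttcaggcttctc
Gm3728: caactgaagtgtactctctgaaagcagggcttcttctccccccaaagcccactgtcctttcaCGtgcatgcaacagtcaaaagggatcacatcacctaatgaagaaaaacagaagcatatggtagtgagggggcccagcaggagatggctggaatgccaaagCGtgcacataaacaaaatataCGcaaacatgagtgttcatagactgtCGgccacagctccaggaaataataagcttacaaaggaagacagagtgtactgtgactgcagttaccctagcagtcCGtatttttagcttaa
Gm35251: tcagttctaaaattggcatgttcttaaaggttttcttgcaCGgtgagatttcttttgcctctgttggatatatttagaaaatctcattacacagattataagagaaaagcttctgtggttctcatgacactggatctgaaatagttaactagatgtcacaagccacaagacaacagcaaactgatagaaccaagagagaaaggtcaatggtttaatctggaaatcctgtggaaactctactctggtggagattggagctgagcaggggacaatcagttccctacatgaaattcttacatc
E130101E03Rik: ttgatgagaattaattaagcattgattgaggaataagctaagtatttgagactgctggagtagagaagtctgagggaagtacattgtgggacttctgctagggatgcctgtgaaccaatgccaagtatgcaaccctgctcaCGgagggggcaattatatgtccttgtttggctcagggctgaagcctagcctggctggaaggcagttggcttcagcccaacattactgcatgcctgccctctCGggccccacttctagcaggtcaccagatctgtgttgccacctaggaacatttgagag

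The printed windows with a peak in every library held 18, 4, 16 and 5 CG dinucleotides, and those with a peak in the controls alone held 1, 5, 1 and 2. Over all windows at desert transcript starts, the median was 9 CG for starts present in all mutants, 5 for starts present in 1 or 2 mutants and 5 for starts in none, beside 7 over the 31396 windows of the whole table. The median GC content was 55.7%, 52.0% and 49.5% in the same order and 53.0% over the table. A TATAAA motif on either strand was in 3.23% of windows present in all mutants, in 13.8% of those in 1 or 2 mutants and in 13.6% of those in none, beside 13.6% of the table. These are descriptions of letters in a window, with no test, and several windows share a gene or a region. Control strength, the mean percentile of fold in both control lists, was not held equal between these sets. It was 97.7 to 99.7 for the printed windows with a peak in every library and 76.1 to 84.3 for those in no mutant. A link of CG number to keeping the peak apart from strength was not tested.

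The desert regions also held the hairpins of 5 microRNA genes, whose mature arms are printed with the seed (bases 2 to 8) in capitals because the peak was kept over some and lost over others. The peak over Mir199a-2 (chromosome 1, 162217814 to 162217923), which lies in the Dnm3os transcript, was present in all 5 libraries. That over Mir214 (chromosome 1, 162223368 to 162223477), in the same transcript, was present in mutants 1 and 2, as was that over Mir137 (chromosome 3, 118433857 to 118433929, between Snx7 and Dpyd). Mir344 and Mir344-2 (chromosome 7, 61877770 to 61877864 and 61940027 to 61940106, between Gm51483 and Ndn) were in regions found in no mutant. The sequences are those of RefSeq.
mmu-miR-199a-5p: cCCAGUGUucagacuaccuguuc
mmu-miR-199a-3p: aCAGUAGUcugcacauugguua
mmu-miR-214-3p: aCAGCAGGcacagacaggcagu
mmu-miR-137-3p: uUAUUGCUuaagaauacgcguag
mmu-miR-344-3p: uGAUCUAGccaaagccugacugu
No seed was shared between these hairpins except by both copies of miR-344. The region over Mir199a-2 had folds of 11.8 and 14.6 in controls 1 and 2 and of 8.64, 12.6 and 7.74 in mutants 1, 2 and 3. The region over Mir214 had lower folds than that over Mir199a-2 in every list that held it, of 3.29 and 4.45 in the controls and 3.55 and 4.93 in mutants 1 and 2.

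All mutants had far fewer peaks in gene deserts than the controls. The number of peaks with a summit over 100 kb from a gene end was 10199 in control 1 and 8046 in control 2, and 2578, 2374 and 1580 in mutants 1, 2 and 3. The groups did not overlap. The mean was 9122.5 ± 1522 (SD, n = 2) in controls and 2177 ± 527 (SD, n = 3) in mutants, 76.1% lower (exact two-sided permutation p = 0.2, the smallest that 2 against 3 libraries allow). Over all distances the lists were 45.1% shorter in mutants, a smaller difference than in the deserts. Desert peaks made up 15.0% and 13.6% of the control lists and 7.16%, 5.63% and 5.94% of the mutant lists. The share averaged 14.3% ± 1.0 (SD, n = 2) against 6.25% ± 0.81 (SD, n = 3), with the same exact p = 0.2. With every list shortened to its strongest 26581 peaks, the mutant share still differed by -5.50 percentage points (exact permutation p = 0.2).

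The sequence over 100 kb from a gene end amounted to 881.7 Mb, or 36.3% of the sequence between the first and the last gene of each chromosome. It held 10.3 ± 1.7 peaks per Mb in controls (SD, n = 2) and 2.43 ± 0.60 in mutants (SD, n = 3), where mutants 1, 2 and 3 had 2.89, 2.66 and 1.76. The relative difference grew with distance, while the difference in peaks per Mb was -16.2 within 1 kb of a gene end and -2.99 over 500 kb. Within 1 kb of a gene end the mean density was 8.48% lower in mutants, at 1 to 10 kb 36.2% lower, at 10 to 50 kb 58.6% and at 50 to 100 kb 69.1%. Beyond the desert limit it was 74.9% lower at 100 to 200 kb, 76.8% at 200 to 300 kb, 78.1% at 300 to 500 kb and 81.6% over 500 kb. No mutant reached the density of a control in any band (exact permutation p = 0.2 in each).

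**Figure D1:**
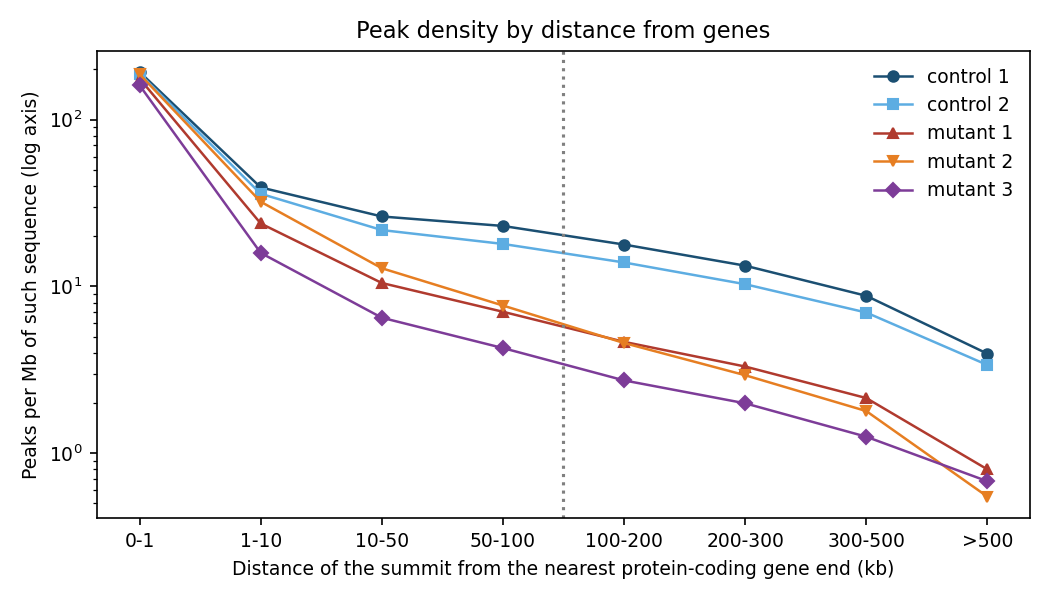
Peaks per Mb of sequence (log axis) in bands of distance from the nearest protein-coding gene end (kb), 1 line for each of the 5 libraries, with the dotted line at 100 kb. The lines lie close together within 1 kb of genes and part with distance, and over 500 kb the mutant mean is 81.6% below that of the controls.

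Most desert regions of the controls had no peak in the mutants. No mutant held 3772 (61.1%) of the 6176, against a background of 30.6% over all 44386 control regions. Another 810 were in 1 mutant and 638 in 2, and 956 (15.5%) were in all 3, against a background of 43.1%. Regions 1 to 100 kb from a gene end, called near-distal here (26039), were absent from all mutants in 35.7% and present in all in 30.9%. Regions within 1 kb of a gene end (12171) were absent from all in 4.15% and present in all in 83.1%. Each mutant showed the order on its own, with desert absence of 68.3% in mutant 1, 72.4% in mutant 2 and 79.1% in mutant 3 (73.3% ± 5.4, SD, n = 3), where the background over all control regions was 39.3%, 38.7% and 52.2%. The number of regions depends on the libraries and on list length. Without control 2 the count absent from all mutants was 7454 of 10093 members (73.9%). With all lists at equal length it was 931 of 2174 members (42.8%), with absence of 56.3% ± 5.4 (SD, n = 3).

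Desert and near-distal regions had nearly the same strength in the controls. Strength was taken as the mean percentile of the deposited fold within both control lists, and its median was 53.9 for desert and 54.2 for near-distal regions, against 86.3 for gene-end regions. Median widths were 646.5, 707 and 1423 bp. Near-distal regions weighted to the strength deciles of the desert regions were absent in 48.2%, 47.1% and 64.7% in mutants 1, 2 and 3. The desert regions exceeded this by 20.1, 25.3 and 14.4 percentage points (19.9 ± 5.5, SD, n = 3). All 3 mutants showed the excess (exact sign-flip p = 0.25, the smallest that 3 mutants allow). Against regions 10 to 100 kb from a gene end alone it was 13.2 ± 4.0 points, and with lists of equal length 22.6 ± 4.3 (SD, n = 3 in each).

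A larger share of desert regions was lost at each level of strength. In the fifth decile of strength, 65.6% of 784 desert and 32.8% of 3111 near-distal regions were in no mutant. In the first and weakest decile the values were 84.6% and 66.8%, and in the seventh 38.8% and 19.2%. In the ninth they were 5.99% of 217 and 1.63% of 1407. In decile 10, 1 of 105 desert and 2 of 860 near-distal regions were absent from all. Desert regions that kept a peak also ranked lower in the mutant lists than near-distal ones of like control strength, with differences of -5.61 percentile points in mutant 1, -9.08 in mutant 2 and -3.17 in mutant 3.

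**Figure D2:**
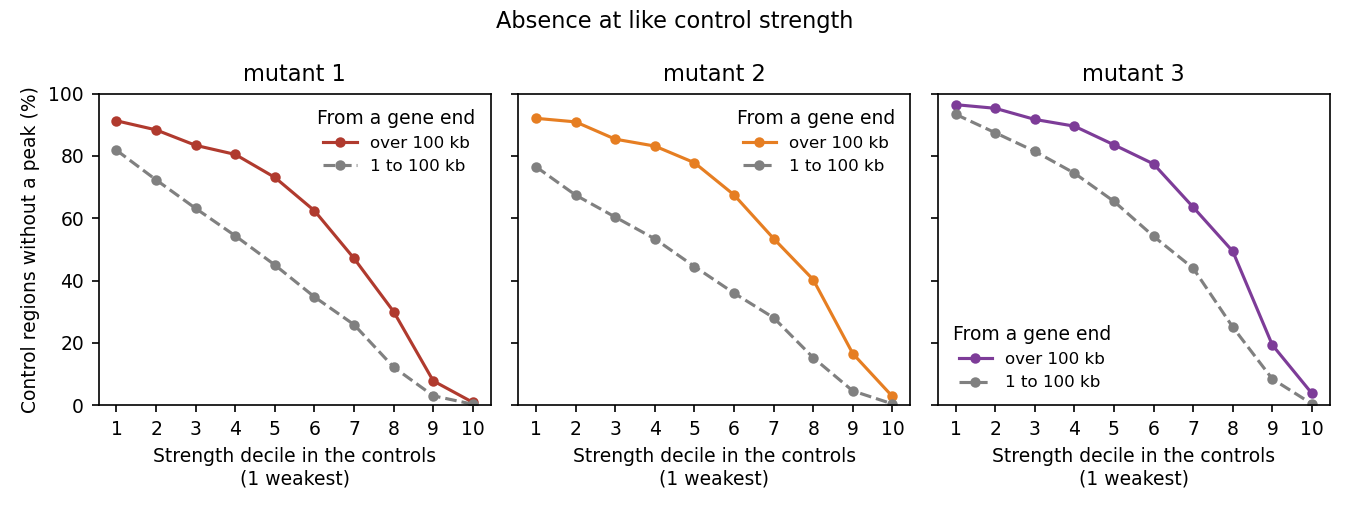
Share of control regions without a peak in each mutant (%), by decile of strength in the controls (1 weakest), for regions over 100 kb from a gene end (solid) and 1 to 100 kb away (dashed). The desert line lies above the near-distal line in each mutant, and both fall towards 0 in decile 10.

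The same measure between pairs of libraries gives its background. For desert regions of control 1, absence from control 2 differed from that of near-distal regions by 1.75 points, and for regions of control 2 absence from control 1 differed by -2.39. Shortening the second control to the length of each mutant list gave -1.26 to 0.58 points. Desert regions of control 1 were absent in 57.7%, 50.8% and 71.2% from control 2 at the lengths of mutants 1, 2 and 3. From the mutants themselves they were absent in 78.9%, 81.7% and 86.6%. Desert regions of control 2 were absent in 47.2%, 39.3% and 63.2% from the shortened control 1, and in 74.0%, 77.3% and 82.8% from the mutants. From a single control to a mutant the excess over near-distal regions was 9.77 to 22.1 points over 6 pairs. Mutants also differed among themselves. Desert regions of mutant 1 were absent from mutant 2 in an excess of 10.1 points and those of mutant 3 in an excess of 8.08 points, while regions of mutant 2 were absent from mutants 1 and 3 in a deficit (-10.8 and -9.52). Mutants 1 and 3 differed by 0.27 and 0.46 points. In the other direction, from a mutant to a control, the difference was -5.84 and -3.45 points for regions of mutant 1, -1.84 and -2.32 for mutant 3, and -14.96 and -14.6 for mutant 2. The spread that involves mutant 2 thus overlaps the lowest value between a control and a mutant, 9.77 for control 1 to mutant 3. Without mutant 2, the excess was 14.1 and 9.77 points from control 1 to mutants 1 and 3, and 17.2 and 12.1 from control 2. On the other measure, that of regions with a peak in both controls, the mean excess without mutant 2 was 17.2 ± 4.1 points (SD, n = 2).

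**Figure D3:**
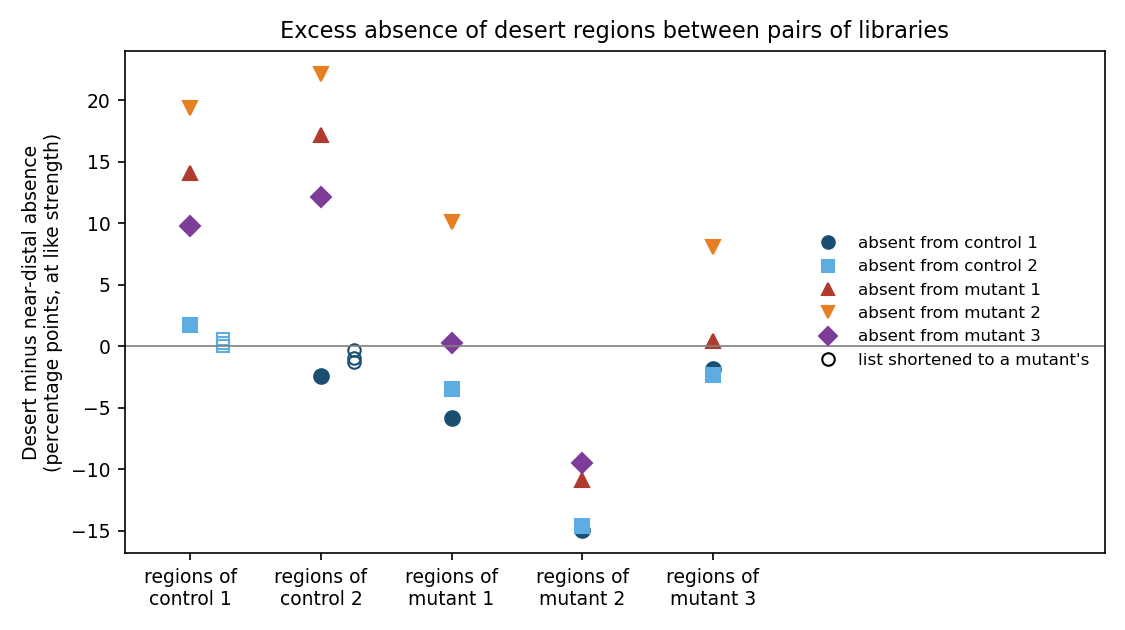
Desert minus near-distal absence at like strength (percentage points) for the regions of each library (horizontal axis) in each other library (marker shape and colour), with open markers for a control list shortened to a mutant's length. Pairs of controls lie near 0, pairs from control to mutant between 9.77 and 22.1, pairs from mutant to control between -14.96 and -1.84, and pairs that involve mutant 2 stand apart from the other mutant pairs.

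Mean absence was higher with each step of distance, with larger steps nearer to genes than inside the deserts. At the strength of the desert regions, mean absence was 42.8% at 1 to 10 kb, 57.3% at 10 to 50 kb and 67.2% at 50 to 100 kb, and then 71.7% at 100 to 200 kb, 73.7% at 200 to 300 kb, 75.2% at 300 to 500 kb and 78.1% over 500 kb. From 50 to 100 kb to 100 to 200 kb it rose by 4.51, 5.67 and 3.28 points in mutants 1, 2 and 3 (4.49 ± 1.2, SD, n = 3, exact sign-flip p = 0.25). From 100 to 200 kb to over 500 kb it rose by 7.51 and 12.3 points in mutants 1 and 2 and changed by -0.66 in mutant 3 (6.40 ± 6.57, SD, n = 3, exact sign-flip p = 0.5), so the difference inside the deserts did not exceed the spread between mutants. With peaks of −log10 q of at least 5, unweighted absence was 73.3%, 73.5% and 73.5% in the bands from 100 to 500 kb and 77.8% over 500 kb, against 72.05%, 73.4%, 74.2% and 78.2% with the lists as deposited. There were 603 regions over 500 kb from a gene end.

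**Figure D4:**
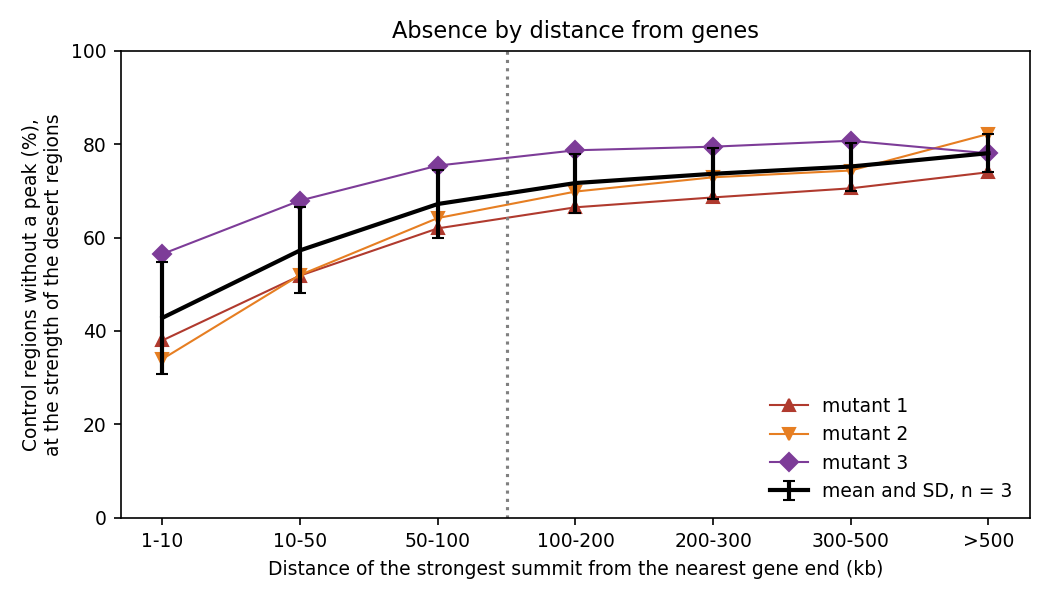
Share of control regions without a peak (%), weighted to the strength deciles of the desert regions, by distance from the nearest gene end (kb), for each mutant and as mean with SD (black, n = 3). The mean rises from 42.8% at 1 to 10 kb to 78.1% over 500 kb, and crosses the dotted line at 100 kb without a jump.

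Regions inside long genes were absent slightly less often than those between genes. Of the 2253 inside a gene, 57.5% were in no mutant and 15.7% in all, and of the 3923 outside genes 63.1% and 15.3%. At like strength absence inside genes minus that outside was -3.80, -4.05 and -0.42 points in mutants 1, 2 and 3. The mean difference was -2.76 ± 2.0 (SD, n = 3, exact sign-flip p = 0.25). Without control 2 it was -1.12 (exact sign-flip p = 0.5), so the direction was then not shared by all 3 mutants. The excess over near-distal regions was 21.1 ± 5.0 points when both sets lay outside genes and 17.9 ± 5.3 when both lay inside.

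Transcript starts kept their peaks more often than other desert regions. The 220 desert regions on a listed start, a set chosen after its values were seen, were absent in 35.0%, 35.0% and 50.0% in mutants 1, 2 and 3. Other desert regions of like strength were absent in 56.2%, 61.8% and 68.5%. The difference was -22.2 ± 4.2 points (SD, n = 3) and had the same direction in all 3 mutants (exact sign-flip p = 0.25). In all mutants, 104 of the 220 were present (47.3%), and 59 were in none (26.8%). Starts inside a gene were in all mutants in 62 of 95 regions, and starts outside genes in 42 of 125. These 2 counts were not taken at like strength, and median strength was 71.9 inside and 63.0 outside. Desert starts were still absent more than near-distal starts of like strength, by 15.2 ± 1.4 points (SD, n = 3, exact sign-flip p = 0.25). Without any transcript start in either set, the desert excess was 19.5 ± 5.7 points (SD, n = 3). The 331 regions within 1 kb of an end of a non-coding gene differed from the other desert regions by -10.7 ± 3.4 points (SD, n = 3, exact sign-flip p = 0.25).

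Among the starts kept in all mutants, that of Gm26901 had control folds of 17.2 and 16.4 and mutant folds of 13.0, 13.1 and 14.8. The internal Nrxn3 start had 15.4 and 13.5 against 10.6, 10.02 and 10.3. Both remained among the strong peaks of each list, though folds of different lists are not on 1 scale. Other kept starts were internal starts of Robo1 and Robo2, receptors for the Slit guidance cues, of Magi1, a scaffold of cell junctions, and of Nav2, whose window held 42 CG. Of the lost starts, that of Gm32237 had folds of 7.46 and 7.28 in the controls and that of E130101E03Rik, near the T-box gene Tbx20, 5.90 and 5.79. These lost starts began at lower folds than the strongest kept ones. Both sets were picked by strength, so this does not compare lost and kept starts in general. Some kept starts had lower control folds than that of Gm32237, such as that of Gm31676 (4.51 and 4.45).

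The strongest desert regions were all present in all 5 libraries. First was a region of chromosome 17 (39842874 to 39848952, between Esp15 and Esp38), also the broadest at 6079 bp, with control folds of 48.9 and 41.8 and mutant folds of 42.9, 47.3 and 43.9. The annotation places there a ribosomal RNA pseudogene, Rn18s-rs5, and the non-coding gene AY036118. Between Lrrc4c and Iftap, 3 regions of chromosome 2 (from 98662104, 98664914 and 98666091) had folds of 21.3 to 52.1 in every library. Regions of chromosome 3 (5860267 to 5860910, between Pex2 and 1700008P02Rik), chromosome 14 (19415595 to 19419654, between Gm41099 and Gm2244) and chromosome 9 (2999879 to 3001605, before the first gene, Alkbh8) had folds of 16.8 to 25.9. These 7 regions had a fold over 16 in every library. Whether they lie in repeats, where reads of many copies can pile up, was not tested, which limits what their presence in every library shows. Next came the starts of Gm26901 and Gm47708 and a region of chromosome 4 (98222893 to 98224174) between Nfia and Tm2d1, with control folds of 14.9 and 15.8 and mutant folds of 12.2, 11.99 and 9.76. Without the regions with a fold over 16 in every library and those before the first gene of a chromosome, an alternative chosen after seeing the data, 3771 regions were in no mutant and 930 in all, and the excess was 20.1 ± 5.5 points (SD, n = 3). The third broadest region, of 4017 bp, lay inside Iqschfp (chromosome 3, 68492259 to 68496275) and was also in all libraries.

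The strongest regions absent from all mutants had folds well above the lowest of a list. Inside Astn2, an astrotactin gene of neuronal migration, a region of chromosome 4 (66025022 to 66026074) had folds of 11.4 and 9.03 in the controls. It was the only region of strength decile 10 among the desert regions that no mutant held. Inside Ppm1l (chromosome 3, 69454556 to 69455508) the folds were 8.50 and 7.68. Outside genes, a region of chromosome 4 (5205454 to 5206310, between Bpnt2 and Fam110b) had 8.50 and 9.57, and a region of chromosome 2 (22104934 to 22105706, between Gpr158 and Myo3a) 7.80 and 10.2. A region of chromosome 3 (155487847 to 155488679, between Lrriq3 and Negr1) had 8.15 and 9.43. A region of chromosome 2 (133118404 to 133119212) lay 172.7 kb from a gene end between Fermt1 and Bmp2, the gene of a bone morphogenetic protein, and had 9.54 and 7.95. A region of chromosome 4 (97476551 to 97477312) between Gm12695 and Nfia, a nuclear factor I gene, had 8.32 and 8.49. Nfia thus had a strong lost region on 1 side and a strong kept region on the other.

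The farthest regions lay over 2 Mb from a gene end. The 2 regions between Celf4 and Pik3c3 on chromosome 18 (28077720 to 28078803 and 28195171 to 28195708) were 2187.6 and 2070.2 kb away and in no mutant. A region between Olfm4 and Pcdh17 on chromosome 14 (82151451 to 82151694) was 2128.4 kb away and in no mutant. Of 2 neighbours between Pcdh20 and Pcdh9, protocadherin genes, 1 (chromosome 14, 90579675 to 90580271) was in no mutant and the other (90577657 to 90578761, with control folds of 7.28 and 7.14) only in mutant 3. At the limit, the members nearest to a gene were inside Ptpro (100.042 kb), Camk2d (100.085 kb) and Ldlrad4 (100.111 kb), all in no mutant. Just outside it, regions near Fhit (99.989 kb) and between Ndst3 and Tram1l1 (99.938 kb) were in no mutant and 1 between Btg1 and Gm46240 (99.975 kb) was in mutant 3.

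The regions fell into 1429 places, 873 stretches between neighbouring genes and 556 host genes, with a median of 3 regions each. The 149 places with at least 10 regions held 35.2% of all, and the share of their regions absent from all mutants ran from 0 to 100%, with a median of 53.8%. Regions of a place are neighbours and not independent. The median gap from a desert region to the nearest other desert region was 20.2 kb. Of adjacent pairs within 5 kb of each other, 32.2% were both absent from all mutants and 32.4% had neither absent, against 45.8% and 13.0% of pairs over 50 kb apart. Close pairs thus more often had neither region lost. These shares were not adjusted for strength. By chromosome the share absent ran from 55.8% of 258 regions on chromosome 18 to 75.6% of 82 on chromosome 19.

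The stretch with the most regions, 37, was that of 2.45 Mb between Adgrl2 and Adgrl4, genes of adhesion G protein-coupled receptors, where 25 were in no mutant and 3 in all. Between Rps24 and Zmiz1, 16 of 31 were lost, and between Zeb2, a zinc finger factor of mesenchyme and neural crest, and the activin receptor gene Acvr2a 19 of 28. Fewer were lost between Bcl11a and Fancl (12 of 27, with 10 in all mutants) and between Mki67 and Mgmt (6 of 27, with 8 in all mutants). The numbers were 15 of 25 between Ttll7 and Adgrl2, 9 of 21 between Zfp608 and Gramd3 and 9 of 20 between Plpp3 and Usp24. Between Gm40892 and Flrt2, and between Slc10a2 and the ephrin gene Efnb2, 16 of 20 were lost. Of the host genes, 16 of 29 regions were lost inside Auts2 and 17 of 29 inside the teneurin gene Tenm4. Inside the phosphodiesterase gene Pde4d 9 of 27 were lost and 11 were in all mutants, and inside Gse1 8 of 26 were lost. Inside the homeobox gene Zfhx3 it was 17 of 24.

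Some deserts lost nearly all of their regions. The highest shares were between Ccer1 and Atp2b1 (11 of 11), between Myc and Gsdmc (15 of 16), between Arpp21 and Pdcd6ip (11 of 12) and between Mctp2 and Rgma (10 of 11). They were followed by those between Celf4 and Pik3c3 and between Kazn and Prdm2 (9 of 10 each). Median strength in these stretches was 33.4 to 61.6 percentile points. The lowest shares were on chromosome 9 before Alkbh8 (0 of 14, all 14 present in every mutant, where repeat content was likewise not tested), between Ubash3b and Gm40514 and between Gja1, a connexin gene, and Hsf2 (2 of 13 each), between Dusp6 and Csl (2 of 11) and between Mc2r and Tcf4 (3 of 16). Median strength there was 55.3 to 79.4, so these places were in part stronger in the controls.

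Beside limb transcription factor genes, 240 of 424 desert regions (56.6%) were in no mutant, where their strength alone, at the rate of all desert regions of the same decile, would give 60.7%. The lists named here were applied to the host gene or to both flanking genes, and no test was made of a list. In the 21 places with at least 8 regions described here, 11.1% to 88.9% were lost. Beside Nr2f2 (from Arrdc4) and En1 (to Insig2) 8 of 9 were lost, and beside Klf4 (to Actl7b) 7 of 8. Between Med13l and Tbx3, a T-box gene of the limb margins, 9 of 12 were lost and none was in all mutants. At the other end, 1 of 9 was lost inside Mecom, with 5 in all mutants. Beside Hand2 (from Fbxo8), a regulator of the posterior limb bud, 2 of 8 were lost and 5 were in all mutants. Beside Tcf4 (from Mc2r), an E protein gene, 8 of 16 were in all mutants. Median strength in these places beside Nr2f2, En1, Klf4 and Tbx3 was 44.7, 36.4, 34.8 and 49.9. It was 51.8 inside Mecom, and 65.7 and 61.1 beside Hand2 and Tcf4. The counts of single places were not compared at like strength.

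Both sides of a gene could differ. The mesenchymal T-box gene Tbx18 had 8 of 13 regions lost and none in all mutants towards Cep162, but 3 of 11 lost and 5 in all mutants towards Nt5e, where median strength was higher (75.7 against 56.9). Beside Shox2, needed for the proximal limb, 4 of 11 regions (from Veph1) were lost and 1 was in all mutants. Beside Mycn (from Cyria) and Ebf1 (to Clint1), 3 of 12 were lost each. Beside Osr1 (from Ttc32), 6 of 11 were lost and none was in all mutants. Of the other limb factors, 7 of 10 were lost beside Sall1, 8 of 15 beside Sall3, 6 of 12 beside Nr2f1, 5 of 12 beside Tshz1, 7 of 14 before Zfhx3 and 6 of 8 inside Foxp1.

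Beside cartilage genes, 96 of 153 regions (62.7%) were lost, where strength alone would give 59.4%. Upstream of Sox9, the master factor of cartilage, 12 of 16 regions between Gm11677 and Sox9 were in no mutant and 2 in all. Inside Sox5 and Sox6, which act with Sox9, 12 of 19 and 6 of 13 were lost. Beside the related Sox11 and Sox4, 6 of 8 and 5 of 13 were lost. The numbers were 8 of 12 beside Matn1, a cartilage matrix gene, and 6 of 11 beside Runx1.

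Beside genes of limb signalling, 138 of 246 (56.1%) were lost, where strength alone would give 60.1%. For the FGF pathway, 7 of 8 regions were lost beside the ligand gene Fgf9, 8 of 17 beside the inhibitor Spry2 and 2 of 11 beside Dusp6, a phosphatase that limits FGF signalling. For Hedgehog signalling, the co-receptor gene Gas1 had 4 of 13 lost on the side of Tut7 and 1 of 8 on the side of Dapk1. For Wnt signalling, the receptor gene Fzd8 had 7 of 8 lost and the antagonist Dkk2 6 of 8, with none in all mutants at either. Among other ligands, Bmp2 (to Hao1) had 5 of 9 lost and the Notch ligand gene Jag1 4 of 10. Ephrin signalling had 9 of 12 lost beside Efna5, 5 of 15 beside Epha4 and 5 of 11 beside Epha7. Inside Rarb, a retinoic acid receptor gene, 8 of 11 were lost. On both sides of the Hoxd cluster, chosen after their values were seen, 6 of 15 regions between Atp5g3 and Lnpk were lost with 3 in all mutants, and 6 of 9 between Mtx2 and Gm50595 with 1 in all.

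**Figure D5:**
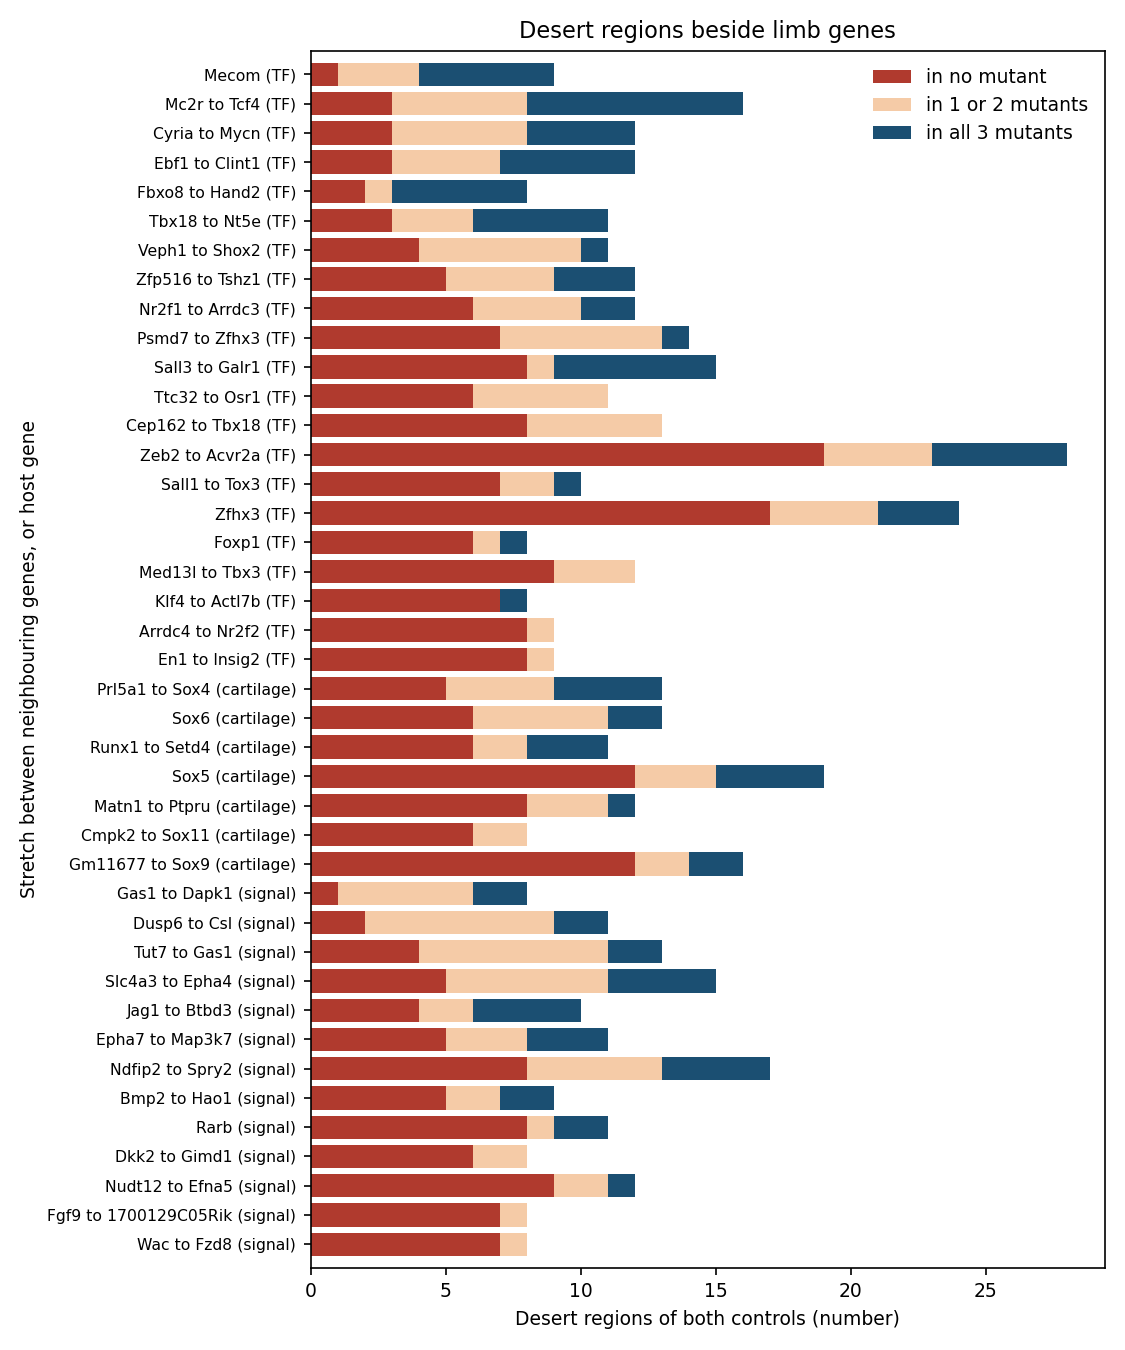
Number of control desert regions in the described stretches and host genes with at least 8 of them beside limb transcription factor (TF), cartilage and signalling genes, split by presence in no mutant, in 1 or 2, or in all 3 mutants. Among the limb transcription factor genes the bars run from 8 of 9 lost beside En1 and Nr2f2 to 1 of 9 lost inside Mecom.

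The lists of other cell types gave these values. Lists share places, so their counts are not separate. The 19 regions between Cdh11 and Cdh5 counted both as endothelial or blood and as neural adhesion. The 11 between Ets1 and Kirrel3 counted in these 2 lists and in neural crest. The 11 between Runx1 and Setd4 counted as cartilage and as endothelial or blood. The 9 between En1 and Insig2 counted as limb transcription factor and as ectoderm. Beside muscle precursor genes 28 of 35 regions (80.0%) were lost, where strength alone would give 61.5%, with 8 of 9 between Cetn3 and Mef2c. Absence beside these genes was 91.4%, 88.6% and 88.6% in mutants 1, 2 and 3. Muscle precursor markers had a gene-end peak for 6 and 5 of 6 in the controls and for 2, 5 and 0 in the mutants, so mutant 2 held as many as control 2, and their part in the list's value was not tested. Beside genes of neural adhesion and synapses 560 of 826 (67.8%) were lost, against 61.1% from strength, and beside neural transcription factor genes 139 of 210 (66.2%), against 59.2%, although inside Nfia it was 6 of 13. Beside endothelial and blood genes 39 of 67 (58.2%) were lost, against 55.9% from strength, with 10 of 19 between Cdh11 and Cdh5 and 8 of 14 between Nr5a2 and Ptprc. With regions given to the nearest flanking gene alone this list had 24 of 35 lost (68.6%). Without adjustment for strength this was above rather than below the 61.1% of all desert regions. Beside neural crest and glial genes it was 19 of 35 (54.3%, against 58.1% from strength), with 6 of 11 between Ets1 and Kirrel3 and 3 of 6 between Ednra and Ttc29. Beside ectoderm genes it was 13 of 27 (48.1%, against 63.6% from strength), with 8 of 9 between En1 and Insig2 and 3 of 8 between Sp4 and Sp8. Ectoderm markers had a gene-end peak for 6 and 7 of 8 in the controls and for 5 in each mutant, and their part in this value was not tested.

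Desert regions with peaks in the mutants were mostly those of the controls. Of 12033 merged desert regions of any library, 5 (0.0416%) were in all mutants and no control, against a background of 0.0491% over all 85522 merged regions. A wider count, of regions in 2 or more mutants and no control, was 31, and no background was computed for it. Of the desert regions of mutants 1, 2 and 3, 92.4%, 87.6% and 95.0% were found in at least 1 control. Taken over the mutants, 480 of 3253 desert regions (14.8%) were in no control, against a background of 22.0% over all merged regions with a peak in a mutant. A further 5377 desert regions had a peak in 1 of the 2 controls. Of the 6176 regions, 412 (6.67%) were kept in mutants 1 and 2 alone, 172 (2.78%) in mutants 1 and 3 alone and 54 (0.874%) in mutants 2 and 3 alone. Near-distal regions showed these patterns in 13.5%, 2.53% and 1.69%. In mutant 1, 2 or 3 alone, 418 (6.77%), 281 (4.55%) and 111 (1.80%) were kept, beside 5.9%, 7.86% and 1.84% of near-distal regions.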

How the data were processed

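Peak lists of 2 control and 3 mutant embryos were used, grouped by the genotype in the labels. Replicates were numbered in sample order, which pairs no samples. Members, lists and comparisons were chosen with earlier results of these data known.

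The submitters' processing notes name bcl2fastq 2.20.0, Bowtie2 2.3.5 and MACS2, with the build mm10. Its options, duplicate removal and any shift towards the cut site were not given in the sources used here. A missing shift would move summits by a few bases only. The authors deposited 1 list per library, with a score (not used), a fold ratio over background, a −log10 p-value and a −log10 q-value per peak. Per the file layout, the deposited other columns give positions and the summit. Folds were computed by the authors within each library, so they only ranked and filtered peaks within a list.

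Python 3.11.15, pandas 2.3.3, numpy 2.4.6 and matplotlib 3.10.9 were used. Peaks sharing 1 bp were merged, and distances taken to both ends of 20665 protein-coding RefSeq genes (GRCm38.p6, the coordinates of mm10). The gene table gives no strand or exons. Strength was the mean fold percentile in both controls, in 10 deciles. The difference at like strength weights each decile by its desert regions, and was tested on simulated data with known differences. The simulation drew regions independently within the same deciles, so it checked the calculation alone. It could not show effects of strength inside a decile or of dependence between neighbours. The library or mutant was the unit of every test: an exact two-sided permutation test for 2 against 3 libraries and an exact sign-flip test over 3 mutants. Of 416 list symbols, 405 matched the annotation. Intervals for single regions were not formed, since read numbers are unknown.

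Regions were named by a rule: the 10 strongest, the strongest lost and kept outside or inside genes, the 5 farthest, the 3 broadest, those nearest the distance limit, the places with the most regions, the extremes of loss among stretches with at least 10 regions, and places with at least 8 regions beside limb genes. Some regions and places under this rule are not reported here. Transcript starts, microRNAs and the stretches beside Hoxd were chosen after seeing the data. No genome was used, so sequences come from RefSeq promoter and microRNA tables. Alternatives were another peak threshold, merging rule, distance limit, comparison set, list length, strata and assignment of genes, and leaving out each library.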

Additional observations from a re-analysis of the deposited data

How the results depend on the processing

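The excess absence of desert over near-distal regions kept its direction under every alternative run, and none of the tested differences changed sign in its mean. It lay between 14.2 and 22.7 points when each library was left out, and was 13.2 against regions 10 to 100 kb from genes. Without control 2 it was 14.2, with mean absence of 82.6%; the range of absence without each library was 70.3% to 82.6%. At equal list length absence was 56.3%, 931 of 2174 regions (42.8%) were in no mutant, the desert share differed by -5.50 points and regions at non-coding gene ends by -15.5. Without each library 3883 to 7454 regions were in no mutant and 961 to 1370 in all. As shares of the members, which change in number, these were 62.8% to 73.9% and 9.61% to 22.2%. The difference at non-coding gene ends was -12.4 to -6.99, at transcript starts -24.8 to -19.8, inside minus outside genes -3.89 to -1.12, in desert peak number -8021.67 to -5868.67 and in desert share -8.75 to -7.33.

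Regions in no mutant and in all mutants numbered 6071 and 1824 over 50 kb from genes, 1834 and 446 over 200 kb, 911 and 171 over 100 kb from any gene, non-coding ones included, and 2476 and 602 outside protein-coding genes. These settings change the number of members, to 10589, 2874, 1365 and 3923 in this order. The shares in no mutant were 57.3%, 63.8%, 66.7% and 63.1%, and those in all mutants 17.2%, 15.5%, 12.5% and 15.3%. With peaks of −log10 q of at least 5, 2545 of 4120 (61.8%) were in no mutant and 610 (14.8%) in all. The desert peak number differed by -4502.67 with that threshold and by -3252.33 over 200 kb. With regions given to the nearest flanking gene alone, fewer members fell to each list, and those in no mutant were 146 of 253 beside limb transcription factors, 77 of 130 beside limb signalling, 81 of 123 beside neural transcription factors, 370 of 558 beside neural adhesion, 12 of 15 beside muscle precursor, 24 of 35 beside endothelial and blood, 11 of 18 beside neural crest and 4 of 8 beside ectoderm genes. The endothelial and blood share thus turned from below (58.2%) to above (68.6%) that of all desert regions, without adjustment for strength. The 58.2% already lay above the 55.9% from strength alone. No paired analysis was possible because the replicate numbers follow sample order and pair no embryos. With 3 mutants and 2 controls no exact test could pass the usual threshold, and peak lists show no openness below the calling threshold.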
